A study of Mus musculus with 16 samples.

Results

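The expression of 10 genes for integrin chains and for surface proteins of tissue-resident T cells, *Itgae*, *Itga1*, *Itga4*, *Itgal*, *Itgav*, *Itgb1*, *Itgb2*, *Itgb7*, *Cd44* and *Cd69*, was examined in tumor-infiltrating T lymphocytes (TILs) of the B16F10 mouse melanoma. Genes were chosen by name, and each name matched 1 row of the 55450 rows of the count table. CD4+ and CD8+ TILs had been taken from s.c. B16F10 tumors of WT mice (C57BL/6J) and of Sirt2KO mice (*Sirt2*-/-, strain B6.129-Sirt2tm1.1Fwa/J), which lack the NAD+-dependent deacetylase SIRT2 in every cell of the host and not in T cells alone, so that 4 groups were formed (CD4 WT, CD4 Sirt2KO, CD8 WT and CD8 Sirt2KO) with 4 libraries each. B16F10 is a transplantable C57BL/6 melanoma line, and the same line was used in every group. TILs were enriched on Percoll and with CD3ε MicroBeads and their total RNA was sequenced, with no further stimulation named in the labels. The labels do not say whether a CD4 and a CD8 library of the same number came from 1 mouse, or whether a library holds 1 mouse, so p-values measure the spread between these libraries.

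Integrins are paired receptors of 1 α and 1 β chain that hold cells to other cells and to the extracellular matrix. Each chain is a separate gene, and a chain reaches the surface only with a partner. αEβ7 (*Itgae*, whose chain is CD103, with *Itgb7*) binds E-cadherin on epithelial cells. α1β1 (VLA-1; *Itga1*, whose chain is CD49a, with *Itgb1*) binds collagen IV. Both integrins, with CD69, mark tissue-resident memory T cells. α4 (*Itga4*) pairs with β1 to bind VCAM-1 and with β7 to bind the gut addressin MAdCAM-1. LFA-1 (*Itgal* with *Itgb2*) binds ICAM-1 and holds the immune synapse together. The αV chain (*Itgav*) binds RGD sites, among them those of latent TGF-β, and is in turn paired with β1, β3, β5, β6 or β8. CD44 binds hyaluronan and is raised on T cells that have met antigen. CD69 holds T cells in tissue by taking the sphingosine-1-phosphate receptor S1PR1 off the surface.

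Library totals ranged from 28000949 to 62407851 counts. There were 3 libraries that detected few genes: 8169 in CD4 Sirt2KO replicate 4, 12587 in CD4 WT replicate 1 and 14411 in CD8 WT replicate 1, against 17730 or more in the other 13, and results that rest on them are given with and without them. *Sirt2* lay between 0 and 12.2 CPM (the counts of a gene scaled to the size of its library, with TMM factors) in the 8 Sirt2KO libraries and between 33.4 and 75.6 CPM in the 8 WT libraries. *Cd4* reached at most 4.93 CPM in a CD8 library against at least 384 CPM in every CD4 library. *Cd8a* reached at most 33.4 CPM in a CD4 library against at least 1003.5 CPM in every CD8 library. Each library thus carried the marker of its label. The other CD8 marker, *Cd8b1*, reached 60.8 CPM in CD4 Sirt2KO replicate 4 and 26.7 CPM in replicate 3. It was at most 15.6 CPM in every other CD4 library and at least 448 CPM in every CD8 library. The source of this signal in CD4 libraries was not tested. Markers of melanoma cells, summed over 7 genes, gave 81.5 CPM in CD4 Sirt2KO replicate 4, where 2 of the 7 were detected. They gave 98.4 CPM in CD4 WT replicate 1, where all 7 were detected. CD8 WT replicate 1 gave 11.4 CPM, and the highest remaining library, CD8 Sirt2KO replicate 4, gave 15.7 CPM. The part of melanoma cells in the values of the genes examined was not tested. In bulk RNA, fewer cells that express a gene and less RNA per cell cannot be told apart.

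The promoter sequences of *Itga1* and *Itgb7* are given because these genes differed between CD4+ and CD8+ TILs in opposite directions. Both lie on the minus strand of GRCm38: *Itga1* (ENSMUSG00000042284.10) on chromosome 13, 114953096 to 115101964, and *Itgb7* (ENSMUSG00000001281.10) on chromosome 15, 102215995 to 102231944. The RefSeq table of GRCm38.p6 held promoters of 6 of the 10 genes (*Itga1*, *Itga4*, *Itgav*, *Itgb1*, *Itgb7* and *Cd44*). Each sequence covers the 250 bases before the RefSeq transcription start, 5′ to 3′ on the strand of the gene. For *Itgb7* that start lies inside the gene bounds given above, which are those of GENCODE, so the window runs slightly into them. Capitals mark matches to 5 motifs searched on both strands: RUNX (TGTGGT), SP/KLF (GGGCGG), ETS (CCGGAAG), E-box (CAGCTG) and SMAD (GTCTAG).
*Itga1* (chr13:115101965-115102214): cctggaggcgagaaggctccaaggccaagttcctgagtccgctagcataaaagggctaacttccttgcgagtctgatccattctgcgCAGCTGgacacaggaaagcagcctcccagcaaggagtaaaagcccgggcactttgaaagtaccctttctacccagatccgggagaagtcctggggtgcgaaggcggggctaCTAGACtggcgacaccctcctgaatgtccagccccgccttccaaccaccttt
*Itgb7* (chr15:102231936-102232185): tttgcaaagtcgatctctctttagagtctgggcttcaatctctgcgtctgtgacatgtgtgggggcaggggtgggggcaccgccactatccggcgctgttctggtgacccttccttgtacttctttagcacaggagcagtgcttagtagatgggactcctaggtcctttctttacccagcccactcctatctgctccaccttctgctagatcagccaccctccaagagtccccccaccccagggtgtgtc
The *Itga1* window held 1 E-box match, which is its own reverse complement, at −163 to −158 from the start, and 1 SMAD match on the opposite strand at −52 to −47. No match to these letters lay in the *Itgb7* window. Among 32851 mouse promoters of the same length, 13% held the E-box letters, 7.11% the SMAD letters, 14.0% the RUNX letters, 32.7% the SP/KLF letters and 6.91% the ETS letters.

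Levels were first compared between genes per length, as CPM per kb of exon. The length was the union of exons, from 2.77 kb for *Itgb7* to 18.6 kb for *Itga1*, and the order depends on it. In CPM without length, *Itga4* was the highest in CD4 WT TILs, at 897 CPM, above *Itgb1* (595) and *Itgb7* (465). Per kb, β1, β2 and β7 were the most abundant chains: in CD4 WT TILs, *Itgb7* averaged 168, *Itgb1* 146 and *Itgb2* 145 CPM per kb. Below them were *Itga4* (64.2) and *Itgal* (52.5), the α chains found on most T cells. *Cd44* (23.2), *Itgae* (20.1), *Itgav* (13.5) and *Cd69* (11.5) followed, and *Itga1* was lowest at 1.15 CPM per kb. In CD8 WT TILs the order was *Itgb1* (192), *Itgb2* (150.0), *Itgb7* (78.9), *Itgal* (68.3), *Itga4* (52.2), *Cd44* (18.2), *Cd69* (18), *Itgav* (9.65), *Itgae* (7.58) and *Itga1* (6.14). Neighbors whose libraries did not overlap were, in CD4 WT TILs, *Itgb2* and *Itga4*, *Itgal* and *Cd44*, *Itgae* and *Itgav*, and *Cd69* and *Itga1*, and, in CD8 WT TILs, *Itgb2* and *Itgb7*, *Itga4* and *Cd44*, and *Cd69* and *Itgav*. All other neighbors overlapped. The ratio of *Itgb7* to *Itgb1* per kb had a median of 1.06 in CD4 WT and 1.11 in CD4 Sirt2KO TILs, against 0.386 in CD8 WT and 0.508 in CD8 Sirt2KO TILs, and the highest CD8 library (0.623) lay below the lowest CD4 library (0.670).

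**Figure D1:**
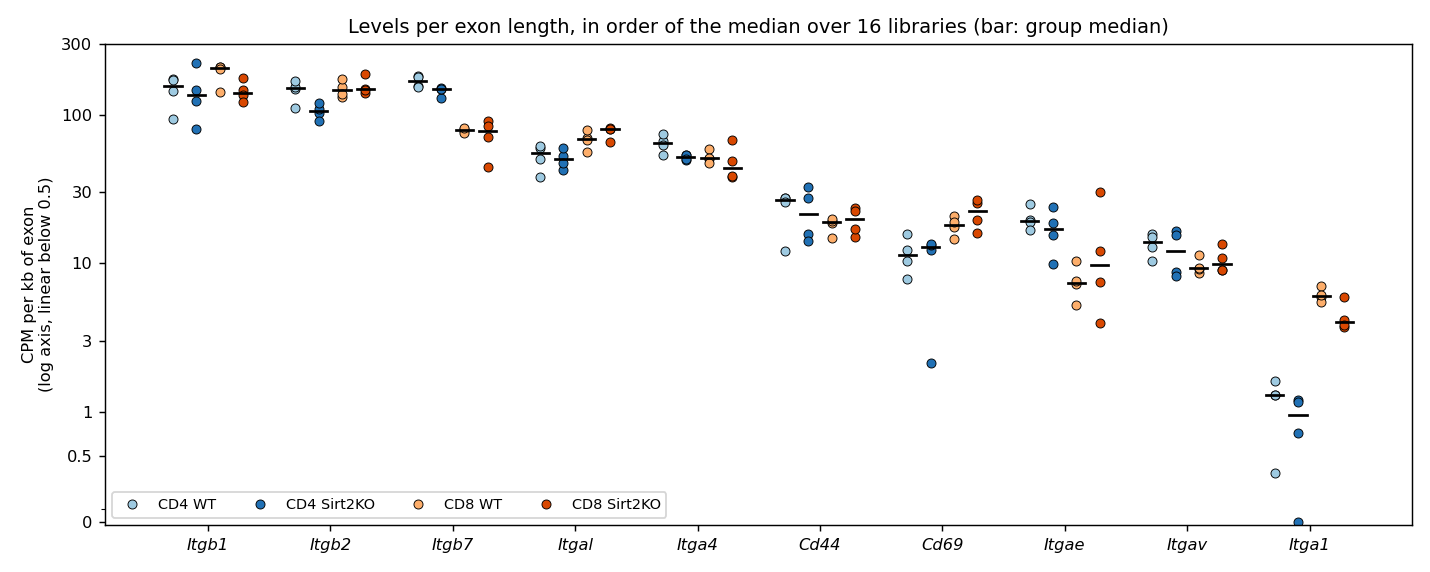
Level of each gene in CPM per kb of exon (vertical log axis, linear below 0.5) in the 16 libraries, by group; points are libraries and short bars are group medians. *Itgb7* sits lower in both CD8 groups than in both CD4 groups, and *Itga1*, lowest of the 10, sits higher in both CD8 groups.

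CD8+ and CD4+ TILs of WT mice differed in both chains of αEβ7 and in the α1 chain, CD49a. *Itgae* and *Itgb7*, which together encode αEβ7, were lower in CD8+ TILs. *Itga1*, the collagen-binding α1 chain, was 5.04 times as high there. These 3 genes were called at an adjusted p below 0.05 (edgeR quasi-likelihood test, Benjamini–Hochberg), and in each the 4 CD8 and 4 CD4 libraries did not overlap. The test called 11.9% of the 14892 genes tested, and the 2 groups of libraries did not overlap in 22.7% of them, so that 3 of 10 genes without overlap is near the share of all genes.

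*Itgae* measured 89.7, 114, 87.5 and 76.6 CPM in CD4 WT replicates 1 to 4 and 33.3, 23.9, 47.1 and 34.6 CPM in CD8 WT replicates 1 to 4. Every CD8 library lay below every CD4 library, and the log2 fold change was −1.48 (SE 0.22, adjusted p = 0.00143), a level 0.360 times that of CD4+ TILs. The gene (ENSMUSG00000005947.11) lies on chromosome 11, 73090583 to 73147446 of GRCm38, and the single-exon kinase gene *Haspin* lies within it on the opposite strand. Whether counting used strand is not given in the sources used here, so reads where the genes overlap may affect the count of either. Its partner *Itgb7* measured 504, 432, 427 and 498 CPM in CD4 WT and 222, 217, 207 and 227 CPM in CD8 WT TILs. The CD8 libraries lay within a narrow band well below the CD4 libraries, with a log2 fold change of −1.16 (SE 0.10, adjusted p = 6.31e-05). *Itga4*, the other α partner of β7, overlapped between the cell types, at 748 to 1036 CPM in CD4 WT and 663 to 828 CPM in CD8 WT TILs, and was not called, at −0.37 (SE 0.13, adjusted p = 0.0849).

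*Itga1* measured 6.92, 24.2, 30.1 and 24.1 CPM in CD4 WT and 110.3, 101, 131 and 114 CPM in CD8 WT TILs. All CD8 libraries lay far above the CD4 libraries, with a log2 fold change of 2.33 (SE 0.37, adjusted p = 0.00207). The short gene *Pelo* lies within *Itga1* on the same strand, so that reads in shared exon sequence may affect the count of either. Its β partner *Itgb1* did not pass the test: it measured 384, 715, 586 and 696 CPM in CD4 WT and 579.6, 861, 852 and 835 CPM in CD8 WT TILs, with replicate 1 lowest in both, and the log2 fold change was 0.32 (SE 0.21, adjusted p = 0.398). The ratio of *Itga1* to *Itgae* per kb ranged from 0.0190 to 0.0848 in CD4 WT and from 0.686 to 1.04 in CD8 WT TILs.

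Both chains of LFA-1 overlapped between WT CD4+ and CD8+ TILs. *Itgal* ranged over 251 to 405 CPM in CD4 WT and 366 to 521 CPM in CD8 WT TILs (log2 fold change 0.30, SE 0.17, adjusted p = 0.318), and *Itgb2* over 339 to 515 and 403 to 535 CPM (log2 fold change −0.03, SE 0.14, adjusted p = 0.947). *Itgav* ranged over 110.4 to 169.6 CPM in CD4 WT and 93 to 123 CPM in CD8 WT TILs, at −0.56 (SE 0.17, adjusted p = 0.0523), just short of the threshold. The hyaluronan receptor *Cd44* ranged over 81.5 to 187 and 100.0 to 135 CPM (log2 fold change −0.43, SE 0.25, adjusted p = 0.326). *Cd69*, the retention gene, ranged over 51.2 to 102 CPM in CD4 WT and 94.4 to 136 CPM in CD8 WT TILs (log2 fold change 0.56, SE 0.22, adjusted p = 0.133). None of these 5 was called.

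The calls moved with the libraries that detected few genes. Without CD4 WT replicate 1 and CD8 WT replicate 1, 8 of the 10 genes were called, against 28.0% of 15694 genes tested: *Itgae*, *Itgb7*, *Itga1*, and in addition *Itgav* (−0.55, adjusted p = 0.00825), *Cd44* (−0.48, adjusted p = 0.00396), *Cd69* (0.58, adjusted p = 0.0159), *Itgb1* (0.35, adjusted p = 0.0308) and *Itgal* (0.33, adjusted p = 0.0480). Without CD4 WT replicate 1 alone, 5 were called, *Itgav* and *Cd44* being added, against 17.5% of 15774 genes. When all 16 libraries shared 1 estimate of the spread, *Itgae* (adjusted p = 0.0933) and *Itga1* (adjusted p = 0.171) missed the threshold, and *Itgb7* alone was called, against 4.7% of 17270 genes. Markers of regulatory T cells, a CD4+ cell type that can carry CD103, moved with these genes: all 6 markers of the list were called lower in CD8+ TILs, and their sum ranged over 2011 to 3232 CPM in CD4 WT and 185 to 313 CPM in CD8 WT TILs. *Foxp3*, which defines these cells, ranged over 359 to 923 CPM in CD4 WT and 0.968 to 4.32 CPM in CD8 WT TILs. The part of these cells in the lower *Itgae* and *Itgb7* of CD8+ TILs was not tested.

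**Figure D2:**
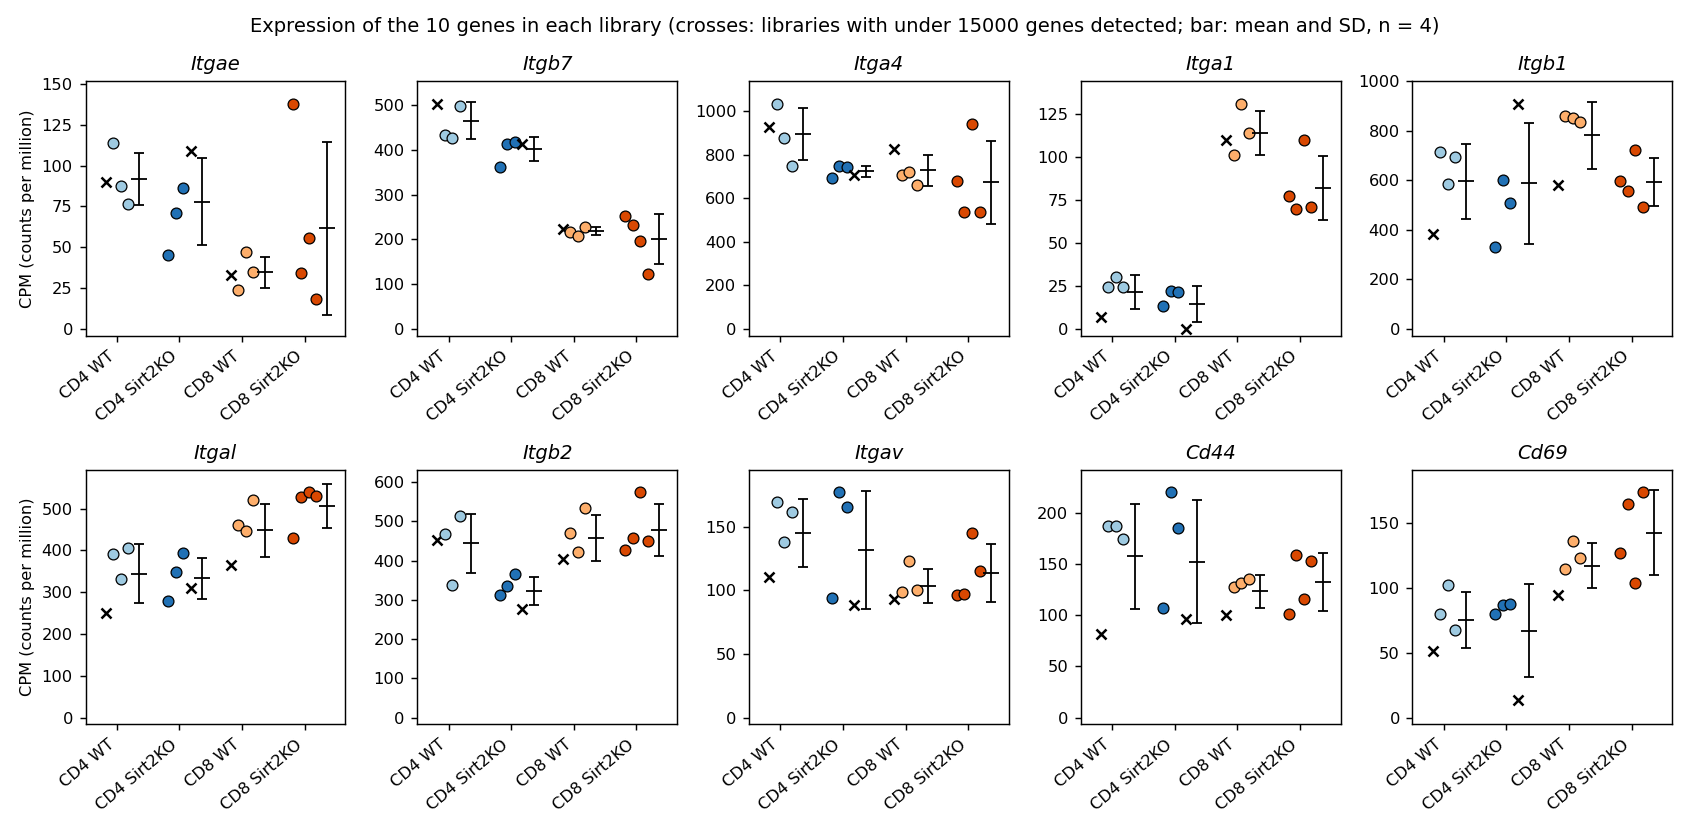
CPM of each of the 10 genes in the 16 libraries, with groups along the horizontal axis; points are libraries, crosses are the 3 libraries that detected under 15000 genes, and bars give mean and SD of 4 libraries. *Itgb7* and *Itga1* separate CD4 from CD8 libraries in both genotypes, and *Itgae* spreads from 18.2 to 138 CPM in CD8 Sirt2KO TILs.

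In TILs of Sirt2KO mice the same comparison called none of the 10 genes with all libraries, and 5 of them without 1 library. With 4 libraries a group the test called 2.24% of 15787 genes. *Itgb7*, again lower in CD8+ TILs, came nearest, at 362, 413, 418 and 414 CPM in CD4 Sirt2KO and 252, 232, 197 and 124 CPM in CD8 Sirt2KO TILs, with a log2 fold change of −1.01 (SE 0.21, adjusted p = 0.0507). At an unadjusted p below 0.05, 3 of the 10 genes and 1842 of all genes passed, and DESeq2 called 3 of the 10 (*Itgb7*, *Itgal* and *Itgb2*) against 8.69% of 15405 genes.

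Libraries did not overlap between CD4 and CD8 Sirt2KO libraries for 5 genes (*Itga1*, *Itgal*, *Itgb2*, *Itgb7* and *Cd69*), against 22.2% of all genes. *Itga1* measured 13.4, 22.2, 21.8 and 0.036 CPM in CD4 Sirt2KO and 77.5, 69.6, 109.8 and 71.3 CPM in CD8 Sirt2KO TILs, and the log2 fold change was 2.50 (SE 1.16, adjusted p = 0.478). In CD4 Sirt2KO replicate 4 *Itga1* had 2 counts. *Itgal* measured 278, 349, 394 and 311 CPM in CD4 Sirt2KO and 428, 528, 539 and 530.3 CPM in CD8 Sirt2KO TILs (log2 fold change 0.59, SE 0.14, adjusted p = 0.0819), and its partner *Itgb2* 313, 334, 366 and 278 and 428, 459, 574 and 449.7 CPM (log2 fold change 0.55, SE 0.14, adjusted p = 0.104). Both chains of LFA-1 were thus higher in every CD8 library, though neither passed the test. *Cd69* measured 79.9, 86.7, 87.6 and 13.9 CPM in CD4 Sirt2KO and 127, 165, 104 and 173 CPM in CD8 Sirt2KO TILs (log2 fold change 1.06, SE 0.50, adjusted p = 0.489), with CD4 Sirt2KO replicate 4 far below the rest.

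Without CD4 Sirt2KO replicate 4, 25.4% of 16703 genes were called, and among them the same 5 genes that had not overlapped: *Itga1* (2.07, adjusted p = 0.000210), *Itgb7* (−1.02, adjusted p = 0.00723), *Cd69* (0.71, adjusted p = 0.0101), *Itgal* (0.54, adjusted p = 0.0118) and *Itgb2* (0.47, adjusted p = 0.0135). Without CD8 Sirt2KO replicate 4, *Itgb7* alone was called, at −0.83 (adjusted p = 0.0480), against 0.734% of 16220 genes. *Itgae* was not called in any of these fits. It measured 45.4, 70.9, 86 and 109 CPM in CD4 Sirt2KO and 138, 34.3, 55.4 and 18.2 CPM in CD8 Sirt2KO TILs, so that CD8 replicate 1 exceeded every CD4 library, replicate 3 lay within their range and the other two lay below it, and the log2 fold change was −0.34 (SE 0.58, adjusted p = 0.998). Without CD8 replicate 1 it was −1.12 (adjusted p = 0.467), and over all fits that left out 1 library it ranged from −1.12 to −0.033. *Itga4*, *Itgav*, *Itgb1* and *Cd44* overlapped, with log2 fold changes from −0.22 to 0.01. The 6 markers of regulatory T cells were called lower in CD8+ TILs here too, and their sum ranged over 1488 to 3126 CPM in CD4 Sirt2KO and 231 to 432 CPM in CD8 Sirt2KO TILs.

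**Figure D3:**
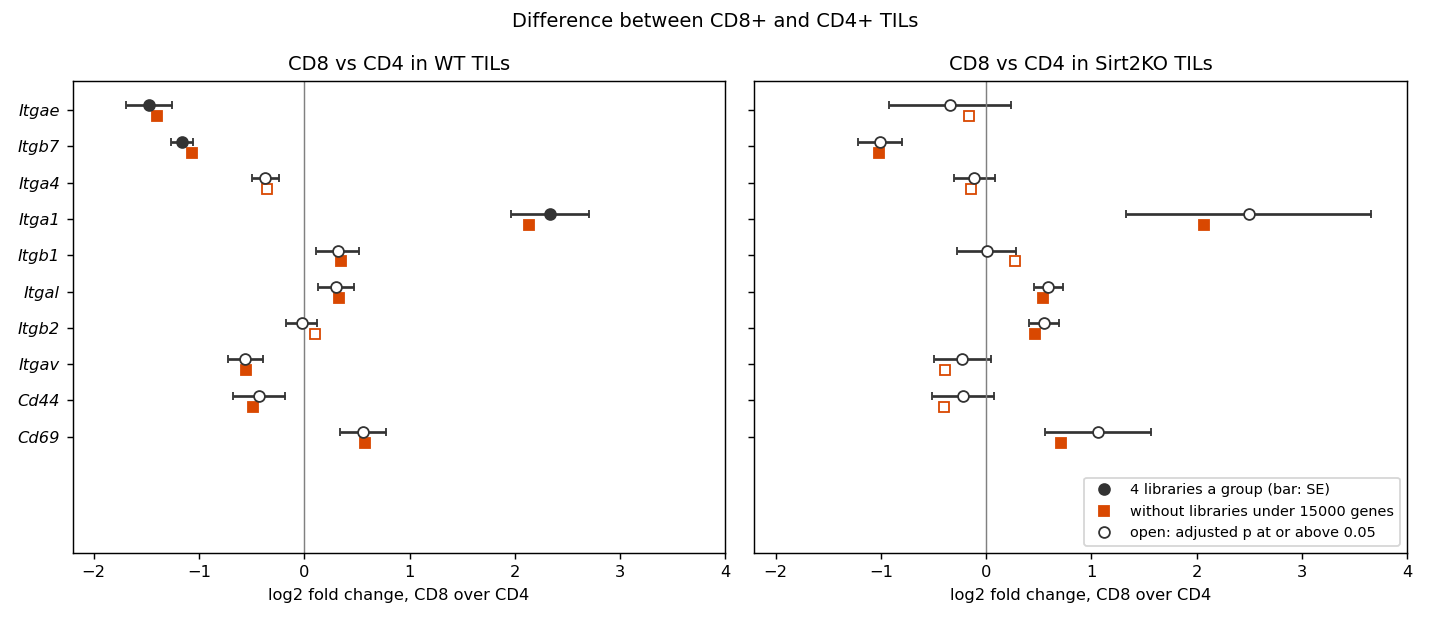
Log2 fold change of CD8+ over CD4+ TILs for the 10 genes in WT (left) and Sirt2KO (right) mice; circles use 4 libraries a group with SE as bars, squares leave out libraries that detected under 15000 genes, and filled symbols have an adjusted p below 0.05. *Itgb7* lies near −1 and *Itga1* above 2 in both genotypes, while *Itgae* lies at −1.48 in WT and at −0.34 in Sirt2KO mice, or at −1.12 there without CD8 Sirt2KO replicate 1.

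The effect of *Sirt2* deletion was compared within each cell type. In CD4+ TILs none of the 10 genes was called, and the test called 0% of 15070 genes. There were 190 genes and 1 of the 10 (*Itgb2*) at an unadjusted p below 0.05. The deleted gene *Sirt2* was thus not called either, though it ranged over 0 to 12.2 CPM in CD4 Sirt2KO and 40.7 to 75.6 CPM in CD4 WT libraries. The lack of a call in this fit therefore does not show that a gene was unchanged. DESeq2 called 7 genes, limma-voom 4 and the fit without libraries under 15000 genes 6, none of the 10 among them. *Itgb2*, the β chain of LFA-1, measured 313, 334, 366 and 278 CPM in CD4 Sirt2KO and 453, 469, 339 and 515 CPM in CD4 WT TILs. WT replicate 3 lay within the Sirt2KO range and the other 3 above it, and the log2 fold change was −0.45 (SE 0.17, unadjusted p = 0.0240, adjusted p = 1.0). *Itgb7* was the 1 gene of the 10 whose libraries did not overlap, against 3.13% of all genes: the highest Sirt2KO library (418 CPM) lay just below the lowest WT library (427 CPM). Its log2 fold change was −0.21 (SE 0.14, adjusted p = 1.0). The exact permutation test gave p = 0.0286, two-sided and not adjusted, the smallest that 4 against 4 libraries allow. Any gene without overlap gets this value, so it adds nothing to the lack of overlap.

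All 10 log2 fold changes in CD4+ TILs lay below 0, from −0.57 for *Itga1* to −0.02 for *Itgb1*, with a median of −0.18, but the median of all genes tested lay at −0.11. The value of *Itga1* was −0.15 without CD4 Sirt2KO replicate 4, where it had 2 counts, and ranged from −0.86 to −0.15 over the fits that left out 1 library. For 5 of the 10 (*Itgal*, *Itgav*, *Itgb1*, *Cd44* and *Cd69*) the sign turned under at least 1 other setting. *Itga4* measured 693, 749.5, 744 and 708 CPM in CD4 Sirt2KO and 928, 1036, 876 and 748 CPM in CD4 WT TILs (log2 fold change −0.30, SE 0.15, adjusted p = 1.0). The Sirt2KO libraries of *Itga4* lay close together, at 724 ± 27.5 CPM (SD, n = 4), and WT replicate 4 lay at the top of their range. Markers of myeloid cells, which also express β2 integrins, were summed over 14 genes. They gave 19.8 to 149 CPM in CD4 Sirt2KO and 16.4 to 19 CPM in CD4 WT TILs. The 149 CPM came from CD4 Sirt2KO replicate 4, where 3 of the 14 were detected, and without it the highest was 55.7 CPM. None of the 8 tested was called, and all 8 were higher in Sirt2KO TILs. The part of myeloid cells in the values of the 10 genes was not tested.

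In CD8+ TILs none of the 10 genes was called either, and the test called 0.00654% of 15302 genes, which was *Sirt2* alone. At an unadjusted p below 0.05 there were 579 genes, among them *Itga1* and *Itgb1*, the chains of VLA-1 (α1β1). *Itga1* measured 77.5, 69.6, 109.8 and 71.3 CPM in CD8 Sirt2KO and 110.3, 101, 131 and 114 CPM in CD8 WT TILs. Of the Sirt2KO libraries 3 lay below every WT library and the other lay among them, with a log2 fold change of −0.48 (SE 0.15, unadjusted p = 0.00934, adjusted p = 0.986). *Itgb1* measured 596, 556, 723 and 494 CPM in CD8 Sirt2KO and 579.6, 861, 852 and 835 CPM in CD8 WT TILs. WT replicate 1, a library with few genes detected, lay within the Sirt2KO range and the other 3 above it, and the log2 fold change was −0.40 (SE 0.15, unadjusted p = 0.0209, adjusted p = 0.986). Libraries overlapped between the genotypes for all 10 genes, against 2.95% of all genes without overlap. DESeq2 called 28 genes, limma-voom 5 and the fit without CD8 WT replicate 1 called 7, none of the 10 among them.

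*Itgae* had the largest difference of the 10 in CD8+ TILs, and it rested on 1 library. CD8 Sirt2KO libraries measured 138, 34.3, 55.4 and 18.2 CPM, against 23.9 to 47.1 CPM in CD8 WT TILs, and the log2 fold change was 0.82 (SE 0.50, adjusted p = 0.986). Without CD8 Sirt2KO replicate 1 it was 0.055. *Cd69* measured 127, 165, 104 and 173 CPM in CD8 Sirt2KO and 94.4, 114, 136 and 123 CPM in CD8 WT TILs (log2 fold change 0.28, SE 0.17, adjusted p = 0.986), with both groups overlapping. The other 6 genes (*Itga4*, *Itgal*, *Itgav*, *Itgb2*, *Itgb7* and *Cd44*) had log2 fold changes from −0.12 to 0.18. Myeloid markers summed to 14.9 to 57.3 CPM in CD8 Sirt2KO and 10.4 to 15.1 CPM in CD8 WT TILs, all 10 tested being higher in Sirt2KO TILs and none called, and their part in the values of these genes was not tested.

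**Figure D4:**
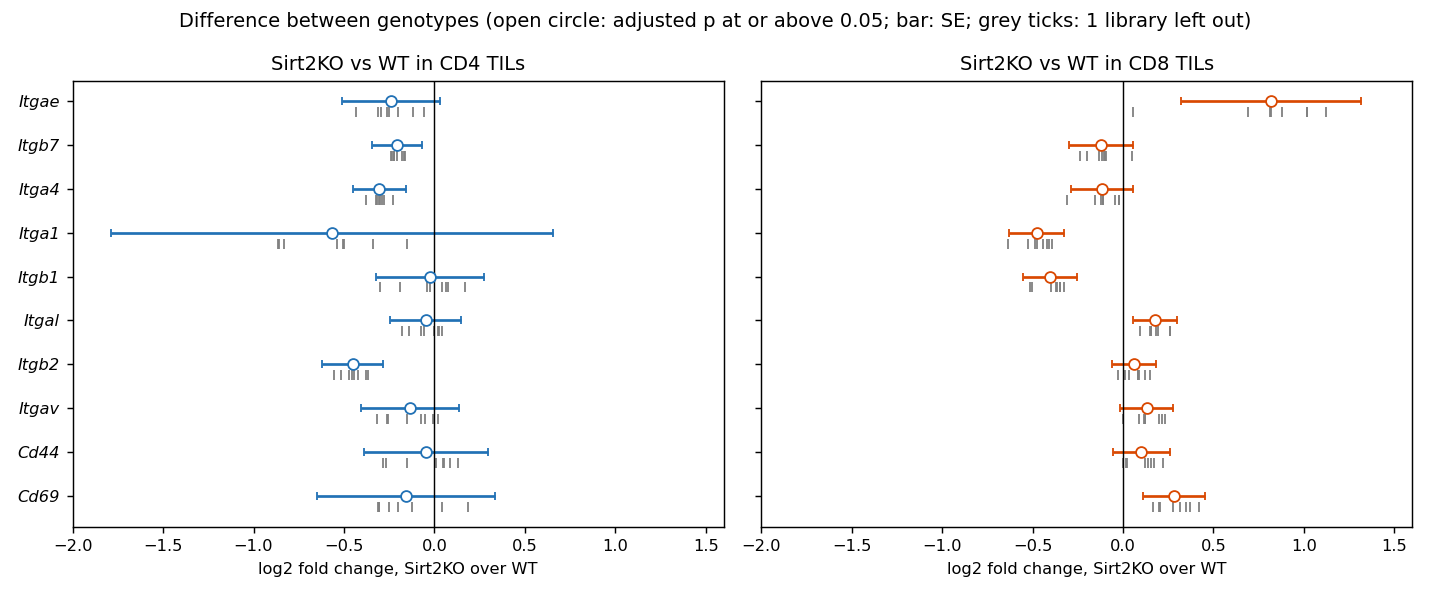
Log2 fold change of Sirt2KO over WT for the 10 genes in CD4+ (left) and CD8+ (right) TILs; circles with SE bars use 4 libraries a group and grey ticks leave out 1 library each. No gene reached an adjusted p below 0.05, and *Itgae* in CD8+ TILs moves from 0.82 to 0.05 without 1 library.

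The genotype and cell type comparisons share libraries, so their values are not independent of each other. Whether the genotype effect differed between the cell types was tested over all 16 libraries. The test called 0% of 17270 genes and none of the 10, with 342 genes and 1 of the 10 (*Itgb2*) at an unadjusted p below 0.05, and DESeq2 called 2 genes. The difference of log2 fold changes, CD8+ minus CD4+, was 0.52 for *Itgb2* (SE 0.21, unadjusted p = 0.0228, adjusted p = 1.0) and 1.06 for *Itgae* (SE 0.63, adjusted p = 1.0). Without CD8 Sirt2KO replicate 1 the difference for *Itgae* was 0.30. Of the 10 differences 9 were positive, with a median of 0.21, but the median of all genes was 0.14. The signs of *Itga1*, *Itga4*, *Itgb7* and *Cd44* turned under limma-voom or with libraries left out.

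Other integrin chains differed between CD4+ and CD8+ TILs as well. Of 18 further chains 12 were tested in WT TILs, and 4 were called lower and 1 higher in CD8+ TILs. The median log2 fold change of the 12 was −1.34, against −0.02 over all genes. Of all genes, the test called 11.9% in WT and 2.24% in Sirt2KO TILs, here and for the lists below. Without the libraries with few genes, 7 of 14 were lower and 1 higher, against 28.0% of all genes called. *Itgb8*, the β chain that with αV releases active TGF-β, measured 18.8, 66, 77.3 and 47.5 CPM in CD4 WT and 0, 0.449, 1.52 and 0.593 CPM in CD8 WT TILs (log2 fold change −6.42, SE 0.86, adjusted p = 0.000765). Every CD8 library of *Itgb8* lay far below every CD4 library, whereas its partner *Itgav* overlapped between them. *Itgb3*, another partner of αV, ranged over 57.5 to 189.9 CPM in CD4 WT and 18.9 to 26.5 CPM in CD8 WT TILs (log2 fold change −2.77, SE 0.34, adjusted p = 0.000441). *Itga6*, the laminin-binding α6 chain, ranged over 208 to 236 and 76.2 to 80.03 CPM (log2 fold change −1.57, SE 0.11, adjusted p = 1.79e-05). *Itgb5*, also a partner of αV, ranged over 3.21 to 11.4 and 0 to 0.291 CPM (log2 fold change −5.82, SE 1.30, adjusted p = 0.0140). *Itgax* (CD11c) was the chain that was higher in CD8+ TILs, at 0, 0.959, 0.178 and 0.054 and 10.4, 4.10, 6.09 and 4.68 CPM (log2 fold change 4.29, SE 1.24, adjusted p = 0.0466), and it was called in only 2 of 8 fits that left out 1 library. Those without CD4 WT replicate 3 or 4, or without any 1 of the 4 CD8 WT libraries, gave an adjusted p up to 0.122. The 6 markers of regulatory T cells were called lower in the same comparison, with a median log2 fold change of −3.80, and their part in the values of these chains was not tested.

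In Sirt2KO TILs 2 of 14 tested chains were called, both lower in CD8+ TILs: *Itgb8*, at 26.2, 76.2, 64.1 and 29.4 CPM in CD4 and 0.285, 1.14, 1.36 and 1.01 CPM in CD8 libraries (log2 fold change −5.71, SE 0.72, adjusted p = 0.00691), and *Itga6* (log2 fold change −1.39, SE 0.19, adjusted p = 0.00895). Both were called in each of the 8 fits that left out 1 library. Without CD4 Sirt2KO replicate 4, 7 of 15 were lower and 1 higher, against 25.4% of all genes called.

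Among the ligands of these receptors, 2 of 10 tested genes were called in WT TILs, in opposite directions, against 11.9% of all genes. *Cdh1*, which encodes the CD103 ligand E-cadherin, measured 12.4, 10.8, 19.3 and 20.8 CPM in CD4 WT and 129, 149, 164 and 153 CPM in CD8 WT TILs (log2 fold change 3.15, SE 0.24, adjusted p = 2.20e-05). The ligand was thus higher in the cell type with the lower *Itgae* and *Itgb7*. In Sirt2KO TILs *Cdh1* measured 9.07, 13, 15.7 and 0 CPM in CD4 and 132, 123, 139.7 and 93.7 CPM in CD8 libraries. Every CD8 library again lay far above every CD4 library, but the gene was not called. The 0 belongs to CD4 Sirt2KO replicate 4, a library with few genes. *Tgfb1*, a cytokine that raises *Itgae* in T cells and whose latent form binds αV integrins, was lower in CD8+ TILs, at 144 to 184 CPM in CD4 WT and 89.4 to 108 CPM in CD8 WT libraries (log2 fold change −0.77, SE 0.12, adjusted p = 0.00207). Markers of stroma and endothelium, which make many of these ligands, summed to 95 to 116 CPM in CD4 WT and 36.2 to 48.6 CPM in CD8 WT TILs over 9 genes, with 1 of 3 tested called lower in CD8+ TILs, and their part was not tested. None of the 12 tested ligands was called in Sirt2KO TILs. Without the libraries with few genes, 2 were higher and 3 lower of 12 in WT TILs. In Sirt2KO TILs 1 was then higher and 2 lower of 12. Of all genes, 28.0% and 25.4% were called in these fits.

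Of 13 tested genes of the TGF-β pathway, 7 were called lower and none higher in CD8 WT TILs, against 11.9% of all genes. The median log2 fold change of the 13 was −0.71. *Lrrc32* (GARP), which presents latent TGF-β on regulatory T cells, measured 187, 147, 144 and 128 CPM in CD4 WT and 2.09, 2.83, 3.64 and 3.30 CPM in CD8 WT TILs (log2 fold change −5.74, SE 0.22, adjusted p = 2.29e-07). The SMAD corepressors *Ski* (log2 fold change −0.82, SE 0.11, adjusted p = 0.000695) and *Skil* (log2 fold change −0.89, SE 0.14, adjusted p = 0.00189) and the receptors *Tgfbr3* (log2 fold change −1.94, SE 0.34, adjusted p = 0.00392) and *Tgfbr1* (log2 fold change −0.74, SE 0.16, adjusted p = 0.0110) were lower in CD8+ TILs, as was *Tgfb1* above. Thus both activating and inhibiting members were among the 7. *Tgfbr1* lost its call without CD8 WT replicate 2, 3 or 4 (adjusted p up to 0.0732). The 6 markers of regulatory T cells, which carry GARP, were lower too, and their part was not tested. In Sirt2KO TILs, *Lrrc32* (log2 fold change −4.91, SE 0.64, adjusted p = 0.00802) and *Skil* (log2 fold change −1.14, SE 0.20, adjusted p = 0.0296) were called of 13, and *Skil* kept its call in only 2 of 8 fits that left out 1 library, those without CD4 Sirt2KO replicate 1 or 4. Without the libraries with few genes, 9 of 13 were lower and 1 higher in WT TILs. In Sirt2KO TILs 8 of 14 were then lower and 1 higher. The shares of all genes called in these fits were 28.0% and 25.4%.

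Genes of tissue residency did not move one way. Of 20 tested in WT TILs, 3 were called higher and 6 lower in CD8+ TILs, against 11.9% of all genes. *Cd244a*, a receptor of cytotoxic lymphocytes, measured 2.93, 1.81, 0.267 and 2.91 CPM in CD4 WT and 58.1, 47, 58.2 and 50.7 CPM in CD8 WT TILs (log2 fold change 4.71, SE 0.57, adjusted p = 0.000420). *Runx3*, the factor that sets the CD8 lineage and is needed for *Itgae* in CD8+ T cells, ranged over 164 to 196 CPM in CD4 WT and 308 to 415 CPM in CD8 WT TILs (log2 fold change 0.92, SE 0.12, adjusted p = 0.000710). *Runx3* and *Itgae* thus differed between the cell types in opposite directions. *Rgs1* (log2 fold change −1.93, SE 0.22, adjusted p = 0.000276) and *Rgs2* (log2 fold change −2.18, SE 0.35, adjusted p = 0.00209), which dampen chemokine receptor signaling, and the ATP receptor *P2rx7* (log2 fold change −3.75, SE 0.59, adjusted p = 0.00197) were lower in CD8+ TILs, as was *Skil*, which stands in this list too. *P2rx7* ranged over 9.38 to 19.8 CPM in CD4 WT and 0.353 to 1.94 CPM in CD8 WT TILs. Without the libraries with few genes, 5 were higher and 9 lower, against 28.0% of all genes called.

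In Sirt2KO TILs 2 residency genes were called higher in CD8+ TILs, the chemokine receptor *Cxcr6* (log2 fold change 1.30, SE 0.24, adjusted p = 0.0325) and *Runx3* (log2 fold change 0.68, SE 0.13, adjusted p = 0.0386), and 2 lower, *Rgs1* (log2 fold change −1.50, SE 0.21, adjusted p = 0.0109) and *Skil*. *Cxcr6* and *Runx3* each kept the call in 1 of 8 fits that left out 1 library, that without CD4 Sirt2KO replicate 4, and *Rgs1* in 7 of 8, with an adjusted p of 0.0505 without CD8 Sirt2KO replicate 1. Without CD4 Sirt2KO replicate 4, 4 of 20 were higher and 7 lower, against 25.4% of all genes called.

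Of 11 tested genes of egress and circulation, 4 were higher and 2 lower in CD8 WT TILs, against 11.9% of all genes called. *Eomes*, a factor of effector and memory CD8+ T cells, measured 17.4, 32.4, 15.3 and 12.1 CPM in CD4 WT and 208, 258, 209 and 231 CPM in CD8 WT TILs (log2 fold change 3.48, SE 0.28, adjusted p = 3.90e-05). *Sidt1* (log2 fold change 1.64, SE 0.30, adjusted p = 0.00498), the fractalkine receptor *Cx3cr1* (log2 fold change 1.58, SE 0.37, adjusted p = 0.0189) and the surface marker *Ly6c2* (log2 fold change 3.82, SE 0.93, adjusted p = 0.0216) were also higher. *S1pr1*, the egress receptor that CD69 takes off the surface, was lower, at 259.8 to 332 CPM in CD4 WT and 149 to 232 CPM in CD8 WT TILs (log2 fold change −0.75, SE 0.16, adjusted p = 0.0106), as was *Tcf7*, a factor of stem-like T cells (log2 fold change −0.55, SE 0.13, adjusted p = 0.0207). *S1pr1* lost its call without CD8 WT replicate 2 (adjusted p = 0.0505). The calls of *Cx3cr1*, *Tcf7* and *Ly6c2* held in 5, 3 and 3 of 8 fits that left out 1 library, and were lost in at least 1 of those without CD4 WT replicate 2, 3 or 4 or without CD8 WT replicate 2, 3 or 4. In Sirt2KO TILs *Eomes* alone was called of 11 (log2 fold change 3.58, SE 0.41, adjusted p = 0.00484), and it held in all 8 such fits. Without the libraries with few genes, 5 were higher and 2 lower of 12 in WT TILs. In Sirt2KO TILs 4 were then higher and 2 lower of 12. Of all genes, 28.0% and 25.4% were called in these fits.

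Another list held genes that promote or restrain integrin activation from inside the cell. Of 23 tested, 3 were called lower and 1 higher in CD8+ TILs of WT mice, with a median log2 fold change of 0.08. The test called 11.9% of all genes, so this count is not far from their share. *Cytip*, which restrains cytohesin-1 and so LFA-1 adhesion, ranged over 507 to 673 CPM in CD4 WT and 183 to 229.7 CPM in CD8 WT TILs (log2 fold change −1.57, SE 0.14, adjusted p = 5.06e-05). *Fyb* (ADAP), the adaptor that links the T cell receptor to integrin activation, was lower too (log2 fold change −0.93, SE 0.10, adjusted p = 0.000227), as was *Cyth1*, which encodes cytohesin-1 (log2 fold change −0.50, SE 0.14, adjusted p = 0.0447), and the kinase *Ptk2b* was higher (log2 fold change 0.44, SE 0.13, adjusted p = 0.0493). *Cyth1* and *Ptk2b* kept the call in only 2 of 8 fits that left out 1 library, *Cyth1* in those without CD4 WT replicate 2 or CD8 WT replicate 1 and *Ptk2b* in those without CD4 WT replicate 1 or 4. In Sirt2KO TILs *Cytip* alone was called of 25 (log2 fold change −1.43, SE 0.13, adjusted p = 0.00218). Without the libraries with few genes, 5 were higher and 4 lower of 24 in WT TILs. In Sirt2KO TILs 5 were then higher and 5 lower of 25. The shares of all genes called in these fits were 28.0% and 25.4%.

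**Figure D5:**
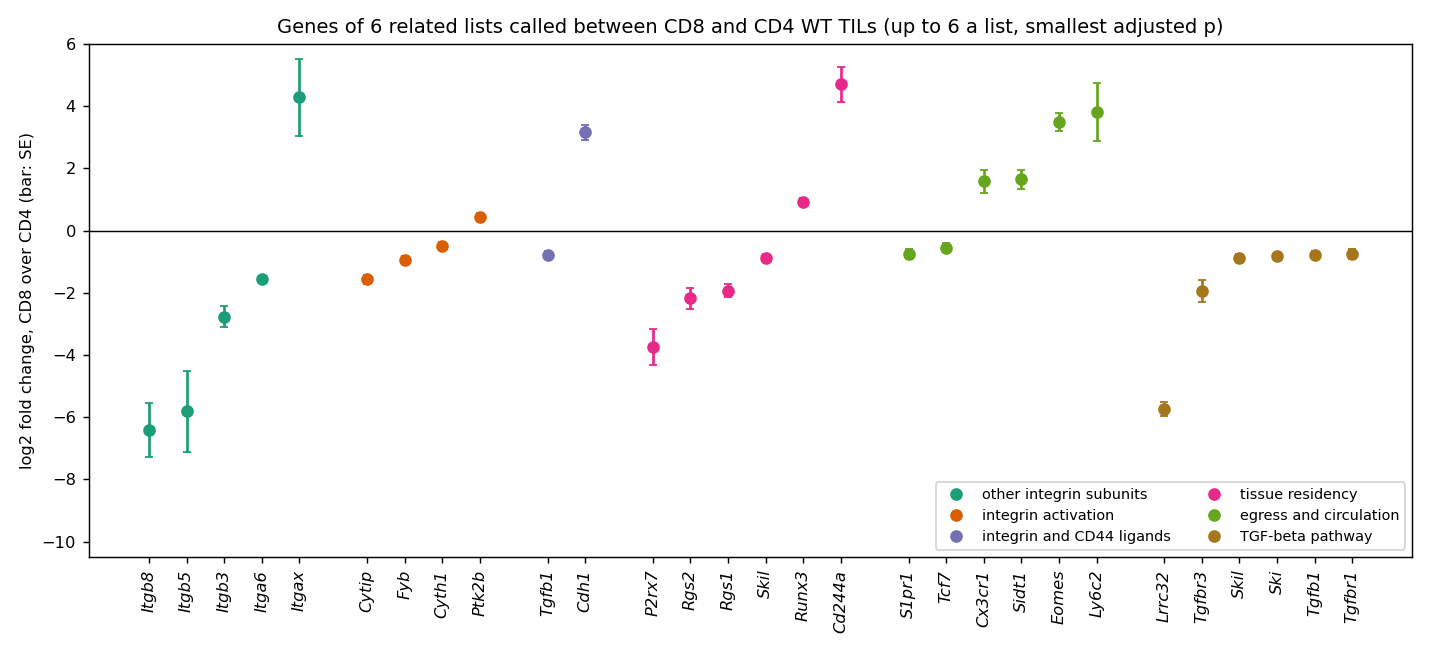
Log2 fold change of CD8+ over CD4+ WT TILs with SE for genes of 6 related lists that had an adjusted p below 0.05, up to 6 a list by smallest adjusted p; colors give the lists, and *Skil* and *Tgfb1* appear in 2 lists each. *Itgb8* at −6.42 and *Itgb5* at −5.82 lie lowest, and *Cd244a* at 4.71 lies highest.

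None of the genes of these 6 lists was called between Sirt2KO and WT, in CD4+ or in CD8+ TILs, or in the test of the difference between the cell types.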

How the data were processed

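The 10 genes and all gene lists were chosen with earlier results of these data known. Libraries were prepared by the authors from purified TILs with a stranded, rRNA-depleted low-input kit. The authors deposited whole-number counts per gene, not normalized, with all 55450 identifiers found in GENCODE mouse release 21 (GRCm38), and the submitters' processing notes name STAR, HTSeq and mm10, with no versions. Totals ranged from 28000949 to 62407851 counts, and values of single libraries carry counting error beside that of the replicates.

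Counts were tested with edgeR 4.0.16 in R 4.3.3 (TMM, filterByExpr by group, robust quasi-likelihood test, two-sided, Benjamini–Hochberg over all genes tested, threshold 0.05), after the functions were tested on simulated data. Genotypes were compared within each cell type and cell types within each genotype, over the 8 libraries concerned, and the interaction over 16. A standard error is the log2 fold change divided by the square root of F. CPM used TMM factors of 16 libraries, and CPM per kb the union of exons. Single values were compared by exact permutation of 70 assignments (log2 of CPM plus 0.5). Named genes were the 10 and, from each related list, up to 6 called genes per comparison by smallest adjusted p; the rest are counts.

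Alternatives were DESeq2 1.42.0, limma-voom 3.58.1 with quality weights, the size factors of DESeq2, upper-quartile scaling, a stricter filter (10 counts or more in each library) or none, a single model of the 16 libraries, a block for replicate number, a threshold of 0.1, and fits without each library in turn or without those under 15000 genes.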

Additional observations from a re-analysis of the deposited data

Results flagged for a closer look

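In 5 of 40 sets of 4 libraries (10 genes in 4 groups), 1 library lay far from the other 3 by Dixon's criterion. Chance flags about 1 in 20 sets, or 2 of 40. *Cd69* in CD4 Sirt2KO replicate 4 was at 13.9 CPM against 79.9 to 87.6 CPM in the other 3 libraries, and *Cd44* in CD4 WT replicate 1 at 81.5 CPM against 174 to 187 CPM. *Itgb1* in CD8 WT replicate 1 was at 579.6 CPM against 835 to 861 CPM. These 3 values belong to the 3 libraries that detected the fewest genes. *Itgal* in CD8 Sirt2KO replicate 1 was at 428 CPM against 528 to 539 CPM, and *Itgb7* in CD4 Sirt2KO replicate 1 at 362 CPM against 413 to 418 CPM. The causes were not tested.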

How the results depend on the processing

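Of 957 values of the 10 genes under other settings, 851 kept their sign and their side of the threshold, 53 passed it newly, 2 no longer passed it (*Itgae* and *Itga1* in WT TILs with all 16 libraries in 1 model) and 51 changed sign. None of the latter was called, and the largest was 0.31 in size. The 957 values include the exact permutation test, which was judged by an unadjusted p below 0.05. It gave some of the 53: *Itgb7* between genotypes in CD4+ TILs, and the 5 genes without overlap between Sirt2KO cell types. All 270 alternative values of the levels stayed within 1 SD. A mean that leaves out 1 of 4 libraries cannot move that far, so only the values under other scaling factors could have done so. The cause of these changes was not tested, other than what each setting leaves out.

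Genes called between Sirt2KO and WT in CD4+ TILs rose from 0 to 7 with DESeq2, 4 with limma-voom and 6 without libraries under 15000 genes. In CD8+ TILs they went from 1 to 28 with DESeq2, 5 with limma-voom, 5 with no filter, 7 without libraries under 15000 genes and 3 at a threshold of 0.1, and ranged from 0 (without CD8 Sirt2KO replicate 1 or 4) to 7 (without CD8 WT replicate 1) with 1 library left out, with 2 and 4 without CD8 WT replicate 2 and 4. Between cell types in WT TILs, 1765 genes became 5504 with limma-voom, 811 with all 16 libraries in 1 model and 4394 without libraries under 15000 genes, and ranged from 1022 to 2766 with 1 library left out, the highest without CD4 WT replicate 1, and over 1.5 times below the 1765 without CD4 WT replicate 3 or CD8 WT replicate 2, 3 or 4. Of the 10 genes, 3 became 5 with DESeq2, 9 with limma-voom, 1 with all 16 libraries in 1 model, 8 without libraries under 15000 genes and 5 at a threshold of 0.1, and ranged from 3 to 5 with 1 library left out. In Sirt2KO TILs 354 genes became 1339 with DESeq2, 4481 with limma-voom, 905 with at least 10 counts in every library, 781 with all 16 libraries in 1 model, 4250 without CD4 Sirt2KO replicate 4 (the library under 15000 genes) and 616 at a threshold of 0.1, and ranged from 111 to 4250 with 1 library left out, each of the 8 moving the count by over 1.5 times. Of the 10 genes, 0 became 3 with DESeq2, 5 with limma-voom, 1 with the size factors of DESeq2, 1 with upper-quartile scaling, 1 with no filter, 3 with at least 10 counts in every library, 3 with all 16 libraries in 1 model, 5 without libraries under 15000 genes and 2 at a threshold of 0.1, and ranged from 0 to 5 with 1 library left out. Interaction calls went from 0 to 2 with DESeq2.

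With the replicate number as a block, calls went from 1 to 4 genes between genotypes in CD8+ TILs and from 354 to 108 between cell types in Sirt2KO TILs, and *Cd69* was added in WT TILs (0.60, adjusted p = 0.0448). Of the named genes of the related lists, the block ended the calls of *Sidt1*, *Cx3cr1*, *Ptk2b*, *Itgb5* and *Itgax* in WT TILs and of *Skil*, *Cxcr6* and *Runx3* in Sirt2KO TILs. With all 16 libraries in 1 model, the calls of *Sidt1*, *S1pr1*, *Cx3cr1*, *Tcf7*, *Ly6c2*, *Cyth1*, *Ptk2b*, *Cdh1*, *Itgax*, *Tgfbr3*, *Tgfbr1* and *Rgs2* ended in WT TILs. The calls of *Cyth1* in WT and of *Runx3* in Sirt2KO TILs also ended with upper-quartile scaling and with no filter, that of *Cyth1* with the size factors of DESeq2, and that of *Ly6c2* in WT TILs with no filter. Deviations of libraries with the same number correlated at 0.098 to 0.133 between WT CD4 and CD8 libraries. There each library correlated best with its own number (a hint from the data, not from the design). Between Sirt2KO CD4 and CD8 libraries the values were −0.0234 to 0.150. In the genotype comparisons, whose libraries cannot share a mouse, they were −0.0818 to 0.0935. These values do not settle the pairing. As the labels name no shared mouse, the numbers were not taken as pairs.

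Signs that changed under other settings were all of small values. In Sirt2KO against WT, limma-voom gave 0.061 for *Itgav* and 0.035 for *Cd44* in CD4+ TILs and −0.030 for *Itgb2* in CD8+ TILs, and *Cd69* was at 0.031 in CD4+ TILs without libraries under 15000 genes. Between WT cell types *Itgb2* was at 0.17 with limma-voom, 0.0099 with upper-quartile scaling, 0.048 with no filter, 0.044 with all 16 libraries in 1 model, 0.10 without libraries under 15000 genes and 0.052 as a difference of log2 CPM. Between Sirt2KO cell types *Itgb1* was at −0.0033 with DESeq2 and with its size factors, −0.046 with upper-quartile scaling and −0.0095 with no filter. In the interaction limma-voom gave −0.085 for *Itga1*, −0.084 for *Itgb7* and −0.039 for *Cd44*, and *Itga1* was at −0.039 without libraries under 15000 genes. With 1 library left out, the ranges that crossed 0 were, between genotypes in CD4+ TILs, −0.32 to 0.022 for *Itgav*, −0.28 to 0.13 for *Cd44*, −0.31 to 0.19 for *Cd69*, −0.18 to 0.044 for *Itgal* and −0.30 to 0.17 for *Itgb1*. In CD8+ TILs they were −0.028 to 0.15 for *Itgb2* and −0.24 to 0.050 for *Itgb7*. Between cell types they were −0.12 to 0.096 for *Itgb2* in WT and −0.21 to 0.27 for *Itgb1* and −0.40 to 0.016 for *Cd44* in Sirt2KO TILs, and in the interaction −0.31 to 0.40 for *Itga1*, −0.035 to 0.27 for *Itgb7*, −0.028 to 0.38 for *Cd44* and −0.011 to 0.29 for *Itga4*.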
